A study of Mus musculus with 18 samples.

Results

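Chemokines are small secreted or membrane-tethered proteins that guide migrating cells, and their receptors are G protein-coupled receptors on the cells that respond. In the ovary, CXCL12 with its receptor CXCR4 is known for guiding primordial germ cells and for its part in follicle assembly and activation, CCL21 from lymphatic endothelium attracts cells that carry CCR7, and inflammatory chemokines such as CXCL1, CXCL2, CCL2 and CXCL10 are induced by cytokine signalling and attract neutrophils, monocytes or T cells. The chemokine and chemokine receptor genes were taken by their symbols (the Ccl, Cxcl, Ccr and Cxcr genes with Cx3cl1, Xcl1 and Xcr1). They numbered 54 of the 30172 genes measured, of which 37 encode ligands and 17 receptors. The atypical receptors, Cx3cr1 and Pf4 fall outside these symbols and are given only as neighbours. Coordinates are those of GRCm38 (GENCODE M21).

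RNA was sequenced from ovaries of C57BL/6J F1 females at postnatal day 3 (Pd3), Pd7 and Pd21. The dams ate feed with 3% methionine (the high-methionine diet, F1-HHcy) or normal feed (F1-Control), by the labels from 4 weeks before mating through gestation and lactation, and the pups were wild type. Each of the 6 groups of diet and day had 3 libraries, 18 in all, and whether a library held 1 ovary pair or a pool of pups is not given in the sources used here. By its labels Pd21 is batch 2 and the earlier days are batch 1, so that levels at Pd21 can be compared between diets but age and batch cannot be told apart when Pd21 is set beside the other days. Depth lay between 33630641 and 39399281 fragments per library. All 10 oocyte markers examined passed the expression filter on each day, as did 5 of 7 granulosa cell markers at Pd3 and all 7 at Pd7 and Pd21.

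Levels are in FPKM (fragments scaled by gene length and library depth), which corrects for gene length, so that levels of different genes can be set side by side. Of the 54 genes, 17 reached 1 FPKM in at least 3 of the 18 libraries, namely 16 ligands (Ccl2, Ccl3, Ccl5, Ccl6, Ccl12, Ccl21a, Ccl25, Ccl27a, Cx3cl1, Cxcl1, Cxcl10, Cxcl12, Cxcl13, Cxcl14, Cxcl16 and Cxcl17) and 1 receptor, Cxcr4. A gene could reach this filter through the group in which it was high. Of the other 37, 12 reached 1 FPKM in 1 or 2 libraries and 25 in none. Diets were compared on each day with limma on log2(FPKM + 1), and a gene was called higher or lower when its unadjusted p was under 0.05 and its log2 fold change was above 0.58 in size. Errors are the SD over n = 3 libraries for means and the standard error (SE) of the fit for log2 fold changes, and adjusted p-values (limma, Benjamini-Hochberg) cover all genes tested on that day. The p-values measure the spread between these libraries, which may in part be technical, and a 2-sided exact permutation test of 3 libraries against 3 cannot give a p below 0.1.

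The summed level of the 54 genes was lowest and most even in F1-Control at Pd3, between 59.7 and 60.8 FPKM. It lay between 74.8 and 79.3 FPKM in F1-Control and between 196.8 and 220.0 FPKM in F1-HHcy at Pd7, so that the diets were far apart on that day. At Pd21 the sums ran from 135 to 399 FPKM in F1-Control and from 194.6 to 300.1 FPKM in F1-HHcy and overlapped. Most of this movement came from a single ligand gene. Ccl21a held 2.22% to 7.72% of the sum in F1-Control at Pd3, 21.4% to 36.6% in F1-Control at Pd7, 66.7% to 68.0% in F1-HHcy at Pd7, and 41.4% to 75.9% in the libraries of Pd21. The receptors made up little of it, with sums from 2.56 to 7.18 FPKM over the 18 libraries. F1-HHcy at Pd3 was uneven, with sums of 108, 83.3 and 426 FPKM in replicates 1 to 3, and in replicate 3 Cxcl1 was the most abundant of the 54 genes while in the other F1-HHcy libraries Ccl21a was.

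**Figure D1:**
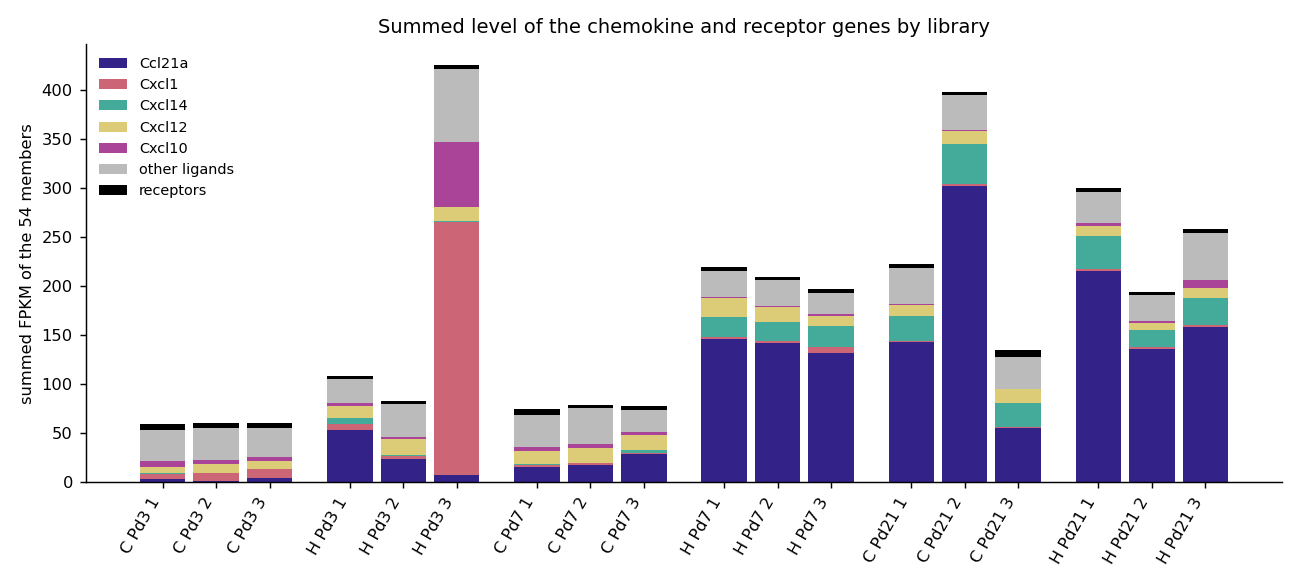
Summed FPKM of the 54 chemokine and receptor genes in each of the 18 libraries (C, F1-Control. H, F1-HHcy), with coloured parts for Ccl21a, Cxcl1, Cxcl14, Cxcl12, Cxcl10, the other ligands and the receptors. The Ccl21a part grows from 2.22% to 7.72% of the bar in F1-Control at Pd3 to 66.7% to 68.0% in F1-HHcy at Pd7, and F1-HHcy Pd3 replicate 3 is mostly Cxcl1.

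At Pd3, 13 of the 54 genes could be tested, and 2 were called higher (Ccl21a and Cxcl12) and 2 lower (Cx3cl1 and Cxcr4) in F1-HHcy. Over all 13277 genes tested, 5.00% were called higher and 4.74% lower. At Pd7, 11 could be tested, of which 2 were called higher (Ccl21a and Cxcl14) and 2 lower (Cxcl10 and Ccl6), against 9.06% of 13299 genes called higher and 7.35% called lower. At Pd21, 14 could be tested, of which 2 were called higher (Cxcl1 and Cxcl10) and 1 lower (Cxcl17), where over 13350 genes 0.0824% were called higher and 5.06% lower. The genes called at Pd21, and Cxcl14 and Ccl6 at Pd7, passed the filter of the day through the group in which they were high. The median log2 fold change of the genes tested from this family was 0.52 at Pd3, -0.23 at Pd7 and -0.13 at Pd21, beside -0.03, -0.0015 and -0.01 over all genes. With numbers of genes this small, 1 call is a large share of the family, and the shares are given only beside the background. The libraries of the diets did not overlap for 5 of 13 family genes at Pd3, 6 of 11 at Pd7 and 2 of 14 at Pd21. Over all genes tested the share without overlap was 27.9%, 39% and 10.5%, so a lack of overlap was common at Pd3 and Pd7.

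**Figure D2:**
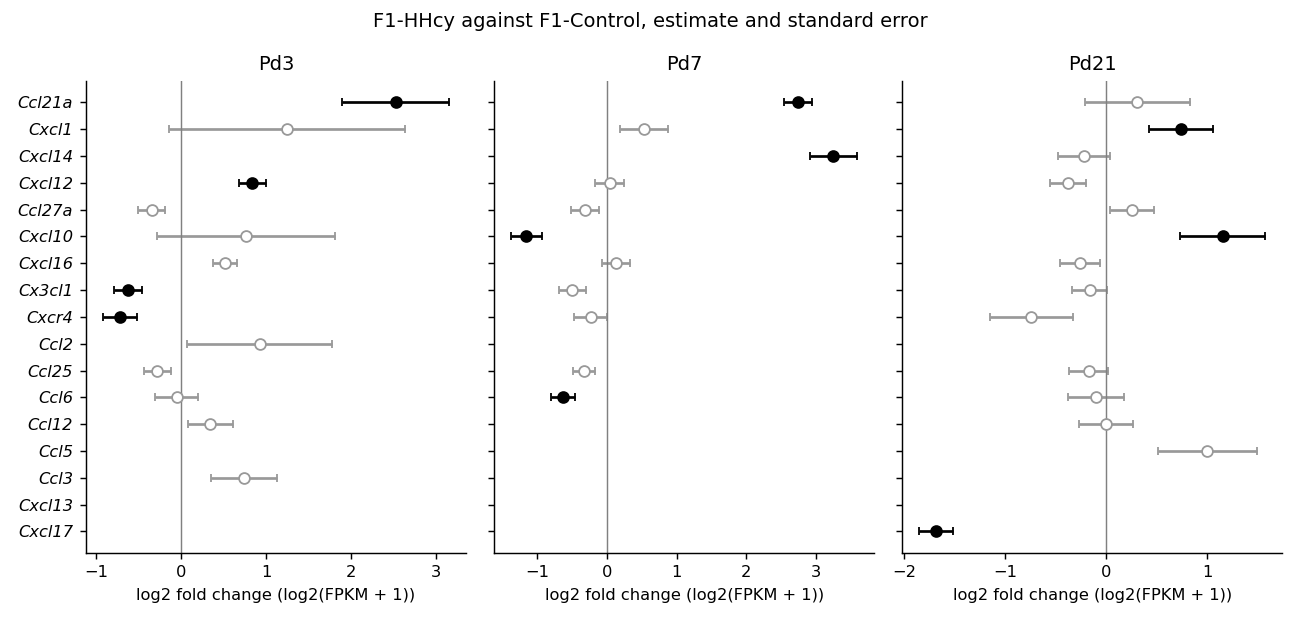
Log2 fold change of F1-HHcy against F1-Control on the log2(FPKM + 1) scale with its standard error for the 17 genes that passed the filter over 18 libraries, for Pd3, Pd7 and Pd21 in separate panels (filled black points, called. Open grey points, not called. No point, not tested on that day). Ccl21a is far to the right at Pd3 and Pd7 and near 0 at Pd21, and Cxcl14 has the largest value at Pd7.

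Ccl21a encodes a constitutive chemokine of lymphatic vessels and lymphoid tissue that acts through CCR7. It lies on chromosome 4 of GRCm38 at 42772860-42773993, on the minus strand. At Pd3 its level was 3.73, 1.35 and 4.66 FPKM in F1-Control replicates 1 to 3 and 53.4, 24.0 and 7.89 FPKM in F1-HHcy replicates 1 to 3, which is 42 to 142 recovered fragments against 236 to 1680. All 3 F1-HHcy libraries were above all 3 F1-Control libraries, and replicate 3 of F1-HHcy was the lowest of its group. The log2 fold change was 2.53 ± 0.63 (SE), with an adjusted p of 0.0723. Leaving out single libraries gave 1.91 to 3.21, the lowest when the first F1-HHcy library was dropped and the highest when the third was.

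At Pd7 the Ccl21a level was 16.0, 17.5 and 28.6 FPKM in F1-Control and 147, 142 and 132 FPKM in F1-HHcy. The groups were wide apart and the F1-HHcy libraries lay close together. The mean was 20.7 ± 6.89 FPKM against 140.2 ± 7.75 FPKM, a log2 fold change of 2.74 ± 0.20 with an adjusted p of 0.00079. At Pd21 the level was 143, 303 and 55.8 FPKM in F1-Control and 215, 136 and 158 FPKM in F1-HHcy, so that the F1-HHcy values lay inside the range of F1-Control, and the log2 fold change was 0.31 ± 0.52 (adjusted p = 1.00). Between Pd3 and Pd7 Ccl21a was also called higher within F1-Control, by a log2 fold change of 2.40 ± 0.57 (adjusted p = 0.0148), and its diet effect was not called different between these days (0.22 ± 0.80, adjusted p = 0.920).

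The Ccl21 locus holds near-identical gene copies, and fragments could have been shared out between them. The annotated transcripts of Ccl21b and Gm10591 differed from the Ccl21a transcript in 2 of 402 compared bases each, and that of Gm13304 in 5 of 837. Ccl21b stayed at or below 0.108 FPKM and Ccl21d at or below 0.0197 FPKM in every library. Gm10591 was listed at 44.7 FPKM in F1-HHcy Pd21 replicate 1 and between 0.838 and 1.46 FPKM in the other 5 libraries of Pd21, and it reached at most 0.676 FPKM in the libraries of Pd3 and Pd7. The Ccl21a value of F1-HHcy Pd21 replicate 1 is uncertain for this reason. How fragments that match several copies were counted is not given in the sources used here. The Ccl21a levels of the other libraries, and its share of the summed level, therefore carry some of the same doubt.

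Markers of several cell types were called higher beside Ccl21a. Of 9 endothelial genes tested, 6 were called higher at Pd3 (Pecam1, Cdh5, Tek, Tie1, Flt4 and Lyve1), 4 at Pd7 (Tie1, Flt4, Lyve1 and Prox1) and 0 at Pd21, where the limma fit gave no endothelial gene an unadjusted p under 0.05. Over all genes tested, 5.00% were called higher at Pd3, 9.06% at Pd7 and 0.0824% at Pd21. The summed level of the 9 genes lay between 40.2 and 56.1 FPKM in F1-Control and 71.4 and 106 FPKM in F1-HHcy at Pd3, between 80.7 and 98.4 and between 105 and 118 FPKM at Pd7, and between 81.3 and 88.9 and between 75.9 and 92.5 FPKM at Pd21. None of the 9 was at 0 in all libraries of a group.

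Lyve1, a hyaluronan receptor of lymphatic endothelium and some macrophages, was at 0.69, 0.73 and 0.40 FPKM in F1-Control and 5.02, 2.96 and 1.57 FPKM in F1-HHcy at Pd3 (log2 fold change 1.30 ± 0.30, adjusted p = 0.0612), and at 2.82, 2.05 and 4.37 against 8.56, 8.22 and 7.05 FPKM at Pd7 (1.17 ± 0.21, adjusted p = 0.0094). Flt4, the receptor of the lymphatic growth factor VEGF-C, had a log2 fold change of 0.77 ± 0.24 at Pd3 and 1.43 ± 0.20 at Pd7 (adjusted p = 0.120 and 0.0040). At Pd3 neither Lyve1 nor Flt4 reached 1 FPKM in any F1-Control library. Both passed the filter of that day only through F1-HHcy, so they could only be called higher there. In F1-HHcy at Pd3, Ccl21a, Lyve1 and Flt4 had the same order of replicates, with replicate 1 highest and replicate 3 lowest, and so had genes of other cells such as Amh of granulosa cells (99.7, 35.2 and 9.72 FPKM) and Bmp15 of oocytes (34.0, 20.1 and 3.70 FPKM), while the endothelial genes Prox1 (1.16, 0.98 and 1.79 FPKM) and Kdr (10.1, 10.6 and 20.1 FPKM) were highest in replicate 3. Prox1, the transcription factor of lymphatic identity, was not called at Pd3 (-0.05 ± 0.17, adjusted p = 0.887) and was called higher at Pd7 (0.65 ± 0.17, adjusted p = 0.0404). In F1-Control at Pd7 only replicate 1 reached 1 FPKM for Prox1 (1.07, 0.67 and 0.68 FPKM), so it passed the filter of that day through F1-HHcy. Outside endothelium, 3 of 5 tested granulosa cell genes were called higher at Pd3 (median log2 fold change of the list 1.39) and 5 of 7 at Pd7 (1.16), and 5 of 8 stroma and theca genes were called higher at Pd3 (0.86) and 3 of 9 higher and 1 lower at Pd7 (0.38), beside endothelial medians of 0.66 and 0.44. Of 10 oocyte genes, 5 were called higher and 2 lower at Pd3 and 1 higher and 7 lower at Pd7. Over all genes tested, 5.00% were called higher and 4.74% lower at Pd3, and 9.06% higher and 7.35% lower at Pd7. The part of any of these cells in the Ccl21a levels was not tested, and in bulk tissue more cells of a type and more RNA per cell cannot be told apart.

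**Figure D3:**
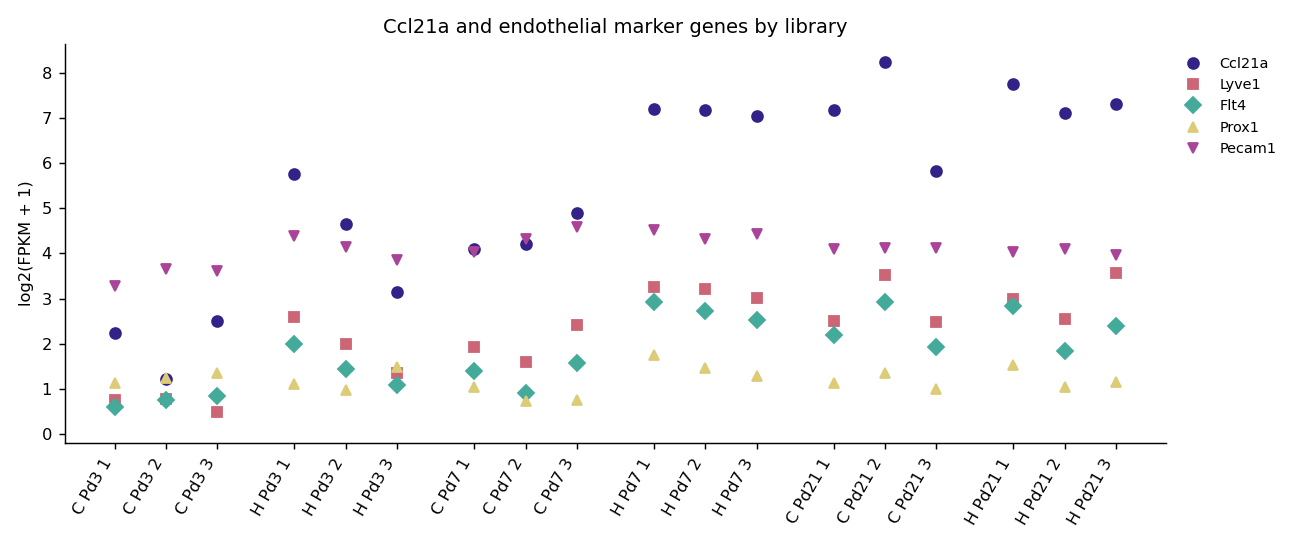
Level of Ccl21a and of the endothelial genes Lyve1, Flt4, Prox1 and Pecam1 as log2(FPKM + 1) in each of the 18 libraries (C, F1-Control. H, F1-HHcy). Ccl21a, Lyve1 and Flt4 are higher in every F1-HHcy library than in every F1-Control library at Pd3 and Pd7, and overlap between the diets at Pd21.

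The gene of the CCL21 receptor, Ccr7, stayed at or below 0.253 FPKM in every library, and Ccl19, the other ligand of this receptor, stayed at or below 0.224 FPKM. The atypical receptor Ackr4, which scavenges CCL19, CCL21 and CCL25, lies outside the symbol rule and was lower in F1-HHcy. It was at 2.94, 3.21 and 3.69 FPKM in F1-Control and 1.10, 2.48 and 1.84 FPKM in F1-HHcy at Pd3 (log2 fold change -0.64 ± 0.20, adjusted p = 0.127), and at 2.80, 2.71 and 1.48 against 0.45, 0.82 and 0.32 FPKM at Pd7 (-1.11 ± 0.21, adjusted p = 0.0109). On both days Ackr4 in every F1-HHcy library was below every F1-Control library. Over all genes tested, 27.9% at Pd3 and 39% at Pd7 were without overlap in either direction. At Pd7 only the F1-Control libraries reached 1 FPKM, so Ackr4 passed the filter of that day through the group in which it was high. At Pd21 it was not tested, with values from 0.076 to 1.41 FPKM. Ccl25, a ligand of CCR9 and of ACKR4, was not called on any day (log2 fold changes -0.28 ± 0.16, -0.33 ± 0.16 and -0.17 ± 0.19 at Pd3, Pd7 and Pd21).

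Among the homeostatic CXC ligands, Cxcl12, the ligand of CXCR4 and ACKR3, lies on chromosome 6 (117168535-117181367, plus strand). Its level was 6.35, 8.71 and 8.23 FPKM in F1-Control and 12.5, 17.1 and 14.3 FPKM in F1-HHcy at Pd3. No F1-HHcy library overlapped the F1-Control libraries. The means were 7.76 ± 1.25 and 14.6 ± 2.31 FPKM, a log2 fold change of 0.84 ± 0.16 with an adjusted p of 0.0401. Cxcl12 was called higher at Pd7 than at Pd3 within F1-Control (0.83 ± 0.20, adjusted p = 0.0151), a comparison that shares the F1-Control libraries of Pd3 with the diet comparison. At Pd7 the F1-Control libraries had 13.1, 15.2 and 15.2 FPKM and the F1-HHcy libraries 19.7, 15.9 and 10.5 FPKM, spread to both sides of F1-Control (log2 fold change 0.04 ± 0.21, adjusted p = 0.910). At Pd21 they had 11.2, 13.0 and 13.8 against 10.7, 7.36 and 10.8 FPKM, with F1-HHcy below F1-Control in each library but no call (-0.38 ± 0.18, adjusted p = 0.842).

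Cxcr4 on chromosome 1 (128588199-128592293, minus strand), the receptor through which CXCL12 signals to G proteins, was the only one of the 17 receptors to pass the filter. Its level was 4.48, 3.72 and 2.99 FPKM in F1-Control and 1.31, 1.78 and 2.57 FPKM in F1-HHcy at Pd3, without overlap (log2 fold change -0.72 ± 0.20, adjusted p = 0.0967), and without F1-HHcy replicate 1 the value was -0.57 and under the fold threshold. Ligand and receptor thus differed in opposite directions at Pd3. At Pd7 the values overlapped, with 2.74, 1.45 and 2.28 against 2.65, 1.30 and 1.2 FPKM (-0.23 ± 0.23, adjusted p = 0.523). At Pd21 F1-Control held 2.10, 0.934 and 5.80 FPKM and F1-HHcy 1.27, 1.30 and 0.662 FPKM, and replicate 3 of F1-Control set the difference of -0.74 ± 0.41 (adjusted p = 1.00), which was -0.25 without it. Without F1-Control replicate 2 it was -1.16 and past both thresholds. Ackr3, the scavenging receptor of CXCL12, was the most abundant receptor gene for this ligand. It was at 9.47, 10.5 and 15.2 FPKM in F1-Control and 17.2, 16.7 and 17.6 FPKM in F1-HHcy at Pd3, a difference of 0.54 ± 0.17 that stayed under the fold threshold (adjusted p = 0.120), and the groups overlapped at Pd7 and Pd21.

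Cxcl14, a constitutively made chemokine of epithelium and stroma on chromosome 13 (56288643-56296551, minus strand), was low at Pd3 with 0.28, 0.48 and 0.36 FPKM in F1-Control and 5.62, 0.63 and 0.86 FPKM in F1-HHcy. It was not tested there, because 1 library alone reached 1 FPKM. At Pd7 it was 0.82, 0.44 and 3.34 FPKM in F1-Control, from 49 to 382 fragments, and 20.5, 19.1 and 21.7 FPKM in F1-HHcy, from 2012 to 2517 fragments. The diets were wide apart, with a log2 fold change of 3.25 ± 0.34 and an adjusted p of 0.0014. Of the F1-Control libraries only replicate 3 reached 1 FPKM, so Cxcl14 passed the filter of that day through the group in which it was high. At Pd21 the diets overlapped, with 25.7, 40.6 and 24.9 FPKM in F1-Control and 33.1, 18 and 27.0 FPKM in F1-HHcy (-0.22 ± 0.26, adjusted p = 1.00). In 4 of the 6 groups the replicate with the highest Cxcl14 also had the highest Ccl21a, which was not so in F1-Control at Pd3 or F1-HHcy at Pd7. Cyp17a1, the androgen-making enzyme of theca cells, had its highest level in the same replicate as Cxcl14 in F1-HHcy at Pd3 and Pd21 and in F1-Control at Pd7. This was not so in F1-Control at Pd3 and Pd21 or in F1-HHcy at Pd7. Cyp17a1 was at 43.3, 1.06 and 0.55 FPKM in F1-HHcy at Pd3, 0.84, 0.60 and 9.03 FPKM in F1-Control at Pd7 and 169, 175 and 64.3 FPKM in F1-HHcy at Pd7. At Pd21 it was at 16.5, 3.33 and 117 FPKM in F1-Control and 103, 10.4 and 4.12 FPKM in F1-HHcy. The part of theca or granulosa cells in the Cxcl14 level was not tested.

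The difference of the diet effect between Pd7 and Pd3 was tested for the 17 genes in 1 model of all 18 libraries. It was called higher for Cxcl14 (2.26 ± 0.62, adjusted p = 0.119), against 4.75% of 14607 genes called higher, and lower for Ccl12 (-1.16 ± 0.39, adjusted p = 0.222) and Cxcl12 (-0.80 ± 0.28, adjusted p = 0.236), against 5.28% called lower. None of the 3 passed an adjusted p of 0.05.

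**Figure D4:**
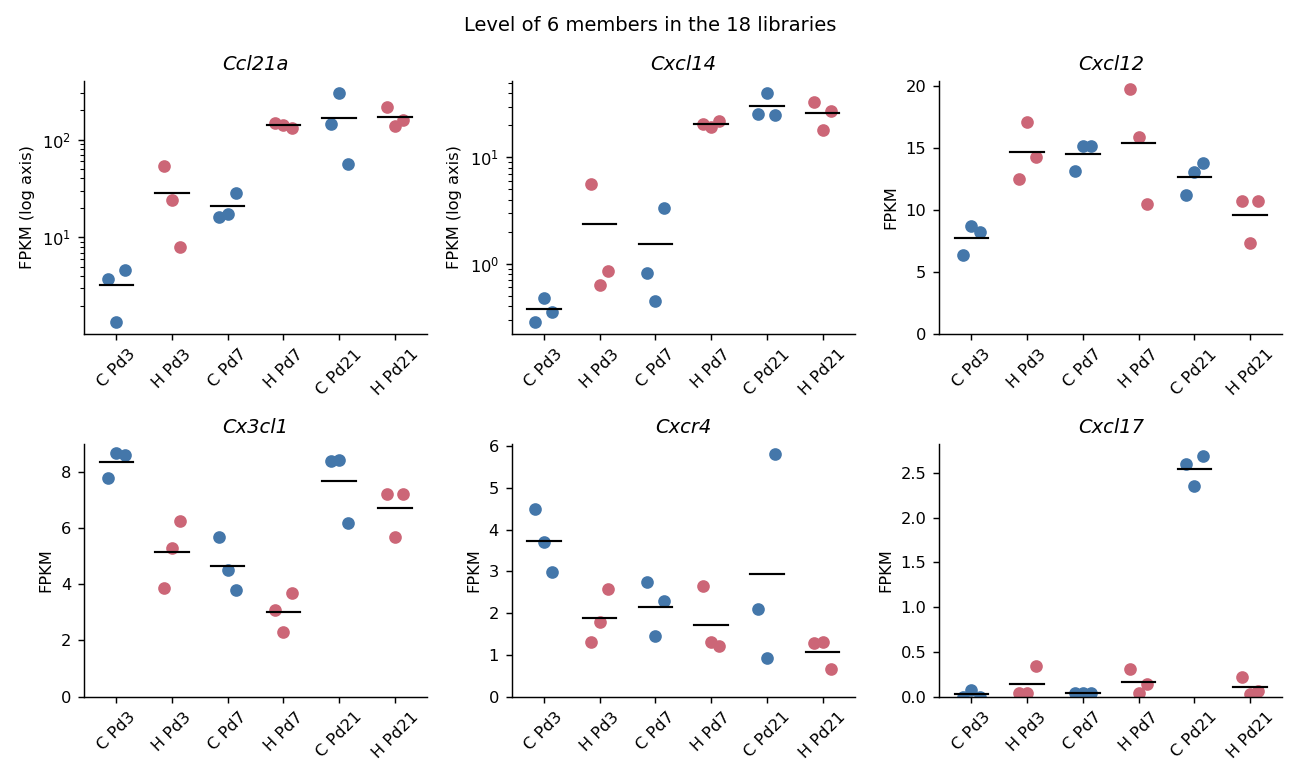
FPKM of Ccl21a, Cxcl14, Cxcl12, Cx3cl1, Cxcr4 and Cxcl17 in each library (points) of the 6 groups, with the group mean as a line (C, F1-Control. H, F1-HHcy. The Ccl21a and Cxcl14 panels have a log axis, the others start at 0). Cxcl12 in F1-HHcy at Pd3 (12.5 to 17.1 FPKM) is at the level of F1-Control at Pd7 (13.1 to 15.2 FPKM), and Cxcl17 is above 1 FPKM only in F1-Control at Pd21.

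The 2 transmembrane chemokines had log2 fold changes of opposite sign at Pd3. Cx3cl1 on chromosome 8 (94772009-94782427, plus strand) encodes fractalkine, a membrane-anchored ligand of CX3CR1, and was 7.78, 8.67 and 8.60 FPKM in F1-Control and 3.87, 5.28 and 6.24 FPKM in F1-HHcy at Pd3, without overlap (log2 fold change -0.63 ± 0.16, adjusted p = 0.0818). Without F1-HHcy replicate 1 it was -0.47 and under the fold threshold. At Pd7 it was 5.68, 4.51 and 3.78 FPKM against 3.07, 2.29 and 3.69 FPKM, with the groups again apart by a small gap, and at -0.50 ± 0.19 it stayed under the fold threshold (adjusted p = 0.11). At Pd21 the groups overlapped (-0.17 ± 0.18). Its receptor gene Cx3cr1 had a log2 fold change of 0.00032 ± 0.17 at Pd3, with values from 0.80 to 2.87 FPKM over all libraries.

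Cxcl16, a membrane-anchored ligand of CXCR6 that is also a scavenger receptor, was 3.80, 4.17 and 4.02 FPKM in F1-Control and 5.91, 7.32 and 5.36 FPKM in F1-HHcy at Pd3. Every F1-HHcy library was higher, yet the log2 fold change of 0.52 ± 0.14 lay below the threshold (adjusted p = 0.0868). Leaving out the third F1-HHcy library raised it to 0.60, past the threshold. Without that library the count at Pd3 was 6 (Ccl21a, Cxcl12, Cxcl16, Cx3cl1, Cxcl10 and Cxcr4) in place of 4. Cxcl16 was not called at Pd7 (0.13 ± 0.20) or Pd21 (-0.26 ± 0.19).

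Between Pd3 and Pd7 in F1-Control, 4 of the 17 genes were called. Ccl21a, Cxcl12 and Cxcl16 were higher at Pd7 (Cxcl16 by 0.69 ± 0.19, adjusted p = 0.0269), against 6.76% of 14607 genes, and Cx3cl1 was lower (-0.74 ± 0.18, adjusted p = 0.0176), against 6.89%. The log2 differences of F1-HHcy from F1-Control at Pd3 for the same 4 genes were 2.53, 0.84, 0.52 and -0.63. Both comparisons take the F1-Control libraries of Pd3 as their base, so the values are set side by side without a test of their likeness. Within F1-HHcy the change from Pd3 to Pd7 was 2.62 ± 0.57 for Ccl21a, 0.03 ± 0.20 for Cxcl12, 0.31 ± 0.19 for Cxcl16 and -0.61 ± 0.18 for Cx3cl1.

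The inflammatory ligands were dominated by 1 library. Cxcl2, Ccl2, Ccl3 and the genes named with them here were chosen after their values were seen, as were Cxcl9, Cxcl15, Xcl1 and the marker genes given by library. In F1-HHcy Pd3 replicate 3, Cxcl1, a neutrophil-attracting ligand of CXCR2, was at 258 FPKM (8489 fragments) and the next of the 18 libraries was at 8.71 FPKM. Cxcl2, a ligand of the same receptor, was at 18.4 FPKM (686 fragments) there and at 0.66 FPKM or below in the other 17 libraries. Ccl2, which attracts monocytes through CCR2, was at 18.7 FPKM and elsewhere at 1.10 FPKM or below, and Cxcl10, an interferon-inducible ligand of CXCR3, was at 66.7 FPKM with the next library at 7.88 FPKM. Ccl3, a ligand of CCR1, was at 4.08 FPKM beside 1.11 FPKM in the next. In all, 10 of the 54 genes had their highest value in this library (Ccl1, Ccl2, Ccl3, Ccl7, Ccl20, Ccl27b, Cxcl1, Cxcl2, Cxcl5 and Cxcl10), while replicate 1 of the same group held the highest value of 0 genes and replicate 2 of 2.

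The NF-kB target genes Nfkbia and Tnfaip3, which encode inhibitors of that pathway, were also high in it, at 117 and 10.7 FPKM, with the other libraries from 17.9 to 30.8 and from 0.34 to 2.29 FPKM. Tnf was at 1.40 FPKM and Il6 at 0.43 FPKM, beside at most 0.21 and 0.02 FPKM elsewhere. Markers of granulocytes summed to 152 FPKM in it, beside 9.02 and 9.45 FPKM in the other F1-HHcy libraries of Pd3 and 299.9 to 1141 FPKM in F1-Control. S100a8 was at 383, 90.5 and 159 FPKM in F1-Control and 3.24, 2.49 and 42.0 FPKM in F1-HHcy. None of the 10 granulocyte genes was at 0 in every library of either group. In the sum and in S100a8, replicate 3 was thus far above its own group and below every F1-Control library. In Ngp, Elane, Mpo, Ly6g and Csf3r it was not below every F1-Control library. The part of cell makeup in the values of this library was not tested.

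**Figure D5:**
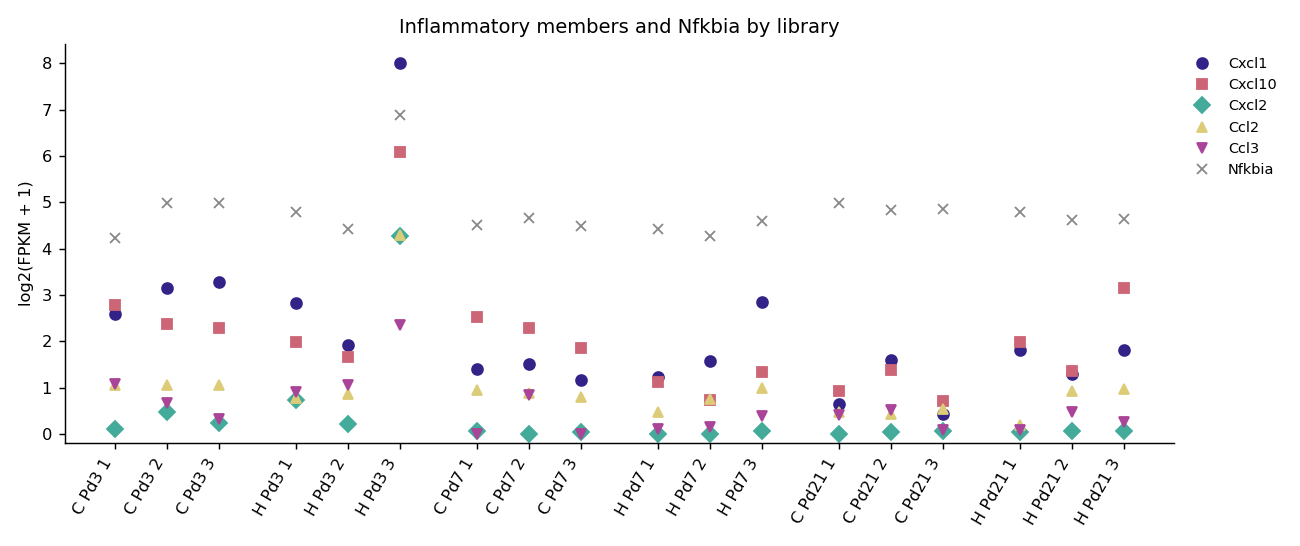
Level of the inflammatory ligand genes Cxcl1, Cxcl10, Cxcl2, Ccl2 and Ccl3 and of the NF-kB target Nfkbia as log2(FPKM + 1) in each of the 18 libraries (C, F1-Control. H, F1-HHcy). All 6 genes are highest in F1-HHcy Pd3 replicate 3, where Cxcl1 is at 258 FPKM.

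With this library included, the diet comparison of these ligands at Pd3 had wide errors. The log2 fold change was 1.25 ± 1.39 for Cxcl1, 0.76 ± 1.05 for Cxcl10, 0.92 ± 0.85 for Ccl2 and 0.74 ± 0.39 for Ccl3, and none was called (adjusted p = 0.637, 0.706, 0.563 and 0.303). Ccl3 was called when all 18 libraries were in 1 model (unadjusted p = 0.031) and without F1-HHcy replicate 1 (1.01). Cxcl10 reversed when the library was left out, to -0.66 with an unadjusted p of 0.0090, since replicates 1 and 2 of F1-HHcy held 2.96 and 2.15 FPKM and F1-Control 5.93, 4.16 and 3.85 FPKM.

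Sequence before the start of these genes was examined because 10 of them peaked together in 1 library. The 250 bases before the annotated start were read from RefSeq (GRCm38.p6) for 41 of the 54 genes, with 48 starts in all. Among those without an entry were Ccl2, Ccl4, Ccl5, Ccl7, Ccl11, Ccl24, Ccr7, Ccr10, Cxcl5, Cxcl16, Cxcl17 and Cxcr5. The NF-kB consensus was searched on both strands, and 8 of the 48 starts (16.7%) held a match, beside 3.92% of 32536 promoter windows of the same length from all genes. Of the 7 genes that peaked in F1-HHcy Pd3 replicate 3 and had an entry, 4 held a match (Cxcl1, Cxcl2, Cxcl10 and Ccl20). These 7 were picked by their values in these same libraries, and Ccl20 had only 11 fragments there. In F1-HHcy Pd21 replicate 3, where 10 genes also peaked, 1 of the 8 with an entry held a match. The windows of Cxcl1, Cxcl2 and Cxcl10, which show where the matches lie, are given with Ccl21a, the most abundant gene of the family, which held none. The windows are chr5:90890995-90891244 for Cxcl1 and chr5:90903649-90903898 for Cxcl2 on the plus strand, and chr5:92348890-92349139 for Cxcl10 and chr4:42773992-42774241 for Ccl21a on the minus strand, each written 5′ to 3′ towards the start, with the letters of a match in capitals.
Cxcl1: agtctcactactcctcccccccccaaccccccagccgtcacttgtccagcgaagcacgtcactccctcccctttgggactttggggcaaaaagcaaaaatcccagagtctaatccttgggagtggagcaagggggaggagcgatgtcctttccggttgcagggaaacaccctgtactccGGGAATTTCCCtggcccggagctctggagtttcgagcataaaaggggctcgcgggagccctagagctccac
Cxcl2: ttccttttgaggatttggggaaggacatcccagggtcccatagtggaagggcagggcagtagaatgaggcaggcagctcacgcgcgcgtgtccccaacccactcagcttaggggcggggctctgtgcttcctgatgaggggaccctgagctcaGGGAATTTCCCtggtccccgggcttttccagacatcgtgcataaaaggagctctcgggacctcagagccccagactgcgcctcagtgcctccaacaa
Cxcl10: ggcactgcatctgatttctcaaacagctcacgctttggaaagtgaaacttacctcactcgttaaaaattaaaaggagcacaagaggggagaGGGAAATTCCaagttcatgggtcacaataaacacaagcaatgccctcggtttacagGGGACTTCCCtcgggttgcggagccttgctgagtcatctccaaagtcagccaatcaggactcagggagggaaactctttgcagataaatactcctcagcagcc
Ccl21a: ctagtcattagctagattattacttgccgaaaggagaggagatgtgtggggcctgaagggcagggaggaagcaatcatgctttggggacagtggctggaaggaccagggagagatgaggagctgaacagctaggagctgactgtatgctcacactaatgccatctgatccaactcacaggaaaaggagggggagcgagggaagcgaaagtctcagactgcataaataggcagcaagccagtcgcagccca
In Cxcl1 and Cxcl2 the capitals are 2 overlapping matches, beginning 71 and 70 bases before the start in Cxcl1 and 97 and 96 in Cxcl2. In Cxcl10 2 separate matches begin 159 and 103 bases before the start. A match is a description of these letters and no evidence that a factor was bound.

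Outside that library the inflammatory ligands were low. At Pd7 Cxcl10 was 4.76, 3.90 and 2.63 FPKM in F1-Control and 1.17, 0.68 and 1.54 FPKM in F1-HHcy, without overlap (log2 fold change -1.16 ± 0.22, adjusted p = 0.0111). The call was lost when all 18 libraries shared 1 estimate of the spread, which included F1-HHcy Pd3 replicate 3 (unadjusted p = 0.152). Ccl6, a ligand of CCR1 made by myeloid cells, was 1.44, 2.03 and 1.28 against 0.88, 0.62 and 0.49 FPKM (-0.63 ± 0.17, adjusted p = 0.0423), also without overlap. Only the 3 F1-Control libraries reached 1 FPKM, so Ccl6 passed the filter of that day through the group in which it was high. Its value came under the fold threshold without F1-Control replicate 2 (-0.51) or without F1-HHcy replicate 3 (-0.55). Pf4, a chemokine of platelets and some macrophages outside the symbol rule, was lower with it (-0.98 ± 0.26, adjusted p = 0.0381). Ccl12, a monocyte-attracting ligand of CCR2, was not tested at Pd7 by the filter of that day, where it had 1.99, 1.95 and 0.76 FPKM in F1-Control and 0.27, 0.61 and 0.40 FPKM in F1-HHcy.

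Markers of blood cells differed with the diet at the same time. Of the erythroid genes, 6 of 6 were called lower at Pd3 and 5 of 5 at Pd7 (median log2 fold changes -3.08 and -2.50), with summed levels of 3914 to 11214 FPKM in F1-Control and 780.3 to 1108 FPKM in F1-HHcy at Pd3. Over all genes tested, 4.74% were called lower at Pd3, and 7.35% lower and 9.06% higher at Pd7. Of the genes listed for mast cells, Kit alone was called lower at Pd3, where Cpa3, Tpsb2 and Cma1 had log2 fold changes of 0.32, 0.07 and 0.22. Kit was also the most abundant of that list, with a mean of 33.2 FPKM over the 18 libraries beside 9.81 FPKM for Cma1, the next. Which cells the Kit level came from was not tested, so Kit is counted here only as a member of the list. At Pd7 2 of 2 tested granulocyte genes and 5 of 5 tested genes of the mast cell list (Kit, Cpa3, Mcpt4, Tpsb2 and Cma1) were called lower. Of 8 macrophage genes, 2 were called lower (C1qa and C1qc) and 1 higher (Mertk). The summed macrophage level was 50.8 to 70.5 FPKM in F1-Control and 43.3 to 54.3 FPKM in F1-HHcy, which overlap. The sum of 5 genes of all leukocytes was 22.8 to 29.2 and 12.3 to 14.2 FPKM, of which Lcp1 alone made up 17.5 to 20.8 and 7.08 to 9.57 FPKM, and the sums of the other 4 overlapped. Of the leukocyte genes, 1 of 4 was called lower at Pd7 (Lcp1) and none of the 10 macrophage genes was at 0 in a whole group. The part of these cells in the levels of Cxcl10 and Ccl6 was not tested. T and NK cell markers summed to at most 4.11 FPKM in any library.

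At Pd21 the calls among inflammatory ligands were weak. Cxcl10 was 0.91, 1.63 and 0.63 FPKM in F1-Control and 2.97, 1.56 and 7.88 FPKM in F1-HHcy, with overlap (log2 fold change 1.16 ± 0.42, adjusted p = 0.472). Cxcl1 was 0.56, 2.04 and 0.35 against 2.53, 1.44 and 2.50 FPKM, also with overlap (0.74 ± 0.32, adjusted p = 0.700). For both genes replicate 2 alone reached 1 FPKM in F1-Control, so they passed the filter of that day through F1-HHcy. Without a filter on low values limma called neither Cxcl10 nor Cxcl1 (unadjusted p = 0.0562 and 0.0841). Ccl5, a chemokine made by T cells, had 1.11, 2.13 and 0.14 against 2.87, 1.12 and 6.39 FPKM and was not called (1.00 ± 0.49). Replicate 3 of F1-HHcy held the highest value of 10 of the 54 genes over all libraries, among them Cxcl9 at 4.67 FPKM, an interferon-induced ligand of CXCR3 that was at most 0.70 FPKM elsewhere. Neither Cxcl10 nor Cxcl1 was called without this library, nor without F1-Control replicate 1 or replicate 3, and the number of calls at Pd21 ran from 1 to 5 as single libraries were left out.

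Cxcl17 on chromosome 7 (25400053-25412886, minus strand), a chemokine of mucosal epithelium, was called lower at Pd21. It was 2.60, 2.36 and 2.69 FPKM in F1-Control, from 68 to 80 fragments, and 0.22, 0.03 and 0.07 FPKM in F1-HHcy, from 1 to 6 fragments. The log2 fold change was -1.68 ± 0.17 with an adjusted p of 0.0027. The added 1 FPKM shrinks it, and with a pseudocount of 0.1 it was -3.78. The gene passed the filter only through F1-Control at Pd21, so a gene admitted in this way had to be lower in F1-HHcy, and at Pd3 and Pd7 it was at or below 0.344 FPKM in every library.

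At Pd21 markers of epithelium were lower beside Cxcl17. Of 9 tested genes of surface and oviduct epithelium, 8 were called lower at Pd21 (Krt18, Krt8, Krt19, Epcam, Upk3b, Pax8, Ovgp1 and Foxj1) and 0 higher. Over all genes tested, 5.06% were called lower and 0.0824% higher on that day. The summed level of the 9 epithelium genes was 381 to 914 FPKM in F1-Control and 114 to 221 FPKM in F1-HHcy, and none of the 9 was at 0 in a whole group. Foxj1, the regulator of ciliated cells, was at 99.1, 20.4 and 49.7 FPKM in F1-Control and 0.37, 0.44 and 0.25 FPKM in F1-HHcy, and Ovgp1, the oviductal glycoprotein, at 216, 37.5 and 365 against 2.10, 0.37 and 1.12 FPKM. Foxj1 and Pax8 passed the filter of that day only through F1-Control, so they could only be called lower. Foxj1 and Ovgp1 varied severalfold between the F1-Control libraries, while Cxcl17 and other genes of the list, such as Upk3b (99.8, 89.5 and 109 FPKM), were more even. The lower epithelium genes were not particular to Pd21. At Pd7 6 of 8 tested genes of the list were called lower and 1 higher (Ovgp1), with a median log2 fold change of -1.21. At Pd3 2 of 9 were called lower (Krt18 and Krt8). All genes had 7.35% called lower and 9.06% higher at Pd7, and 4.74% lower at Pd3. Cxcl17 was low in both diets on those days. The part of oviduct or surface epithelium in the Cxcl17 level was not tested.

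Cxcl15, a ligand known from lung and endometrial epithelium, was listed at 0 in each of the 12 libraries of Pd3 and Pd7 and at 33 to 208 fragments in each of the 6 libraries of Pd21. Its level there was 0.72, 0.53 and 0.40 FPKM in F1-Control and 0.44, 0.57 and 2.48 FPKM in F1-HHcy. Age and batch cannot be told apart for it. Ccl27a, a ligand of CCR10, was the most abundant of the family in 2 libraries of F1-Control at Pd3, with 9.91, 10.2 and 7.75 FPKM in F1-Control and 6.52, 8.65 and 6.15 FPKM in F1-HHcy, and was not called on any day (log2 fold changes -0.35 ± 0.16, -0.32 ± 0.20 and 0.25 ± 0.22). It overlaps Il11ra1 on the other strand of chromosome 4, a gene at 22.8 to 51.6 FPKM. The libraries were stranded, but the strand setting of the counting is not given in the sources used here, so its level is uncertain. Ccl2, Ccl6, Ccl19, Ccl21a, Ccl25, Cxcl10, Cxcl15, Cxcl16, Cxcl17 and Xcl1 also overlap an annotated gene on the other strand.

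The receptors other than Cxcr4 were low. Ccr1 and Ccr2 had 19 to 127 and 16 to 134 fragments and were detected in every library. Ccr1, the most abundant CC receptor gene, had a mean of 0.52 FPKM over the 18 libraries, Cxcr3 one of 0.36 and Ccr2 one of 0.34, and Xcr1 stayed at or below 0.0981 FPKM. Ccr1 and Cxcr3 reached 1 FPKM in 1 and 2 libraries. Of the ligands, Xcl1 reached 1 FPKM in 2 libraries, both F1-HHcy at Pd21, with 0.75, 1.10 and 1.86 FPKM there and 0.94, 0.86 and 0.49 FPKM in F1-Control. Cxcl13, which attracts B cells, was at 1 FPKM or above in 3 libraries and was not tested between the diets.

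The genes that act downstream of these receptors or induce the ligands were called about as often as all genes at Pd3. Of 19, 18 and 17 tested genes of receptor signalling at Pd3, Pd7 and Pd21, 1, 3 and 0 were called higher and 1, 0 and 0 lower, where all genes had 5.00%, 9.06% and 0.0824% called higher and 4.74%, 7.35% and 5.06% lower. At Pd3 Rac2, the small GTPase of blood cells, was lower (-1.11 ± 0.27, adjusted p = 0.0707), and at Pd7 Rgs2 and Grk3, which dampen G protein-coupled receptor signalling, were higher (0.98 ± 0.18 and 0.87 ± 0.22, adjusted p = 0.0112 and 0.0333). At Pd21 limma gave Ptk2b, a kinase downstream of these receptors, the smallest p of this list with -0.56 ± 0.21 (adjusted p = 0.482), under the fold threshold. Of 11, 11 and 10 tested cytokine and NF-kB genes, 0 were called higher on any day and 1 lower, Il1r1 at Pd3 (-0.72 ± 0.24, adjusted p = 0.141).

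The interferon response, which induces Cxcl9 and Cxcl10, had 4 of 12 tested genes called lower and 0 higher at Pd3, with a median log2 fold change of -0.39 beside -0.03 over all genes. Over all genes tested, 4.74% were called lower and 5.00% higher on that day. Isg15, an interferon-induced ubiquitin-like protein, was 16.2, 12.3 and 14.5 FPKM in F1-Control and 2.01, 2.55 and 2.11 FPKM in F1-HHcy (-2.25 ± 0.14, adjusted p = 0.0062), and Rsad2, an antiviral enzyme, also fell in the fit (-1.65 ± 0.23, adjusted p = 0.0203). Rsad2 and Ifit1, both among the 4, reached 1 FPKM at Pd3 only in F1-Control, so they could only be called lower there. Replicate 3 of F1-HHcy, in which Cxcl10 was at 66.7 FPKM, did not stand apart in Isg15, but did in Irf1, an interferon-induced transcription factor that is also an NF-kB target, at 44.2 FPKM beside at most 19.3 FPKM in the other 17 libraries (Irf1 was chosen after its values were seen). At Pd7 2 of 9 interferon genes were called lower and 1 higher, where all genes had 7.35% lower and 9.06% higher. At Pd21 2 of 12, among them Usp18 (-1.87 ± 0.26, adjusted p = 0.0088), were called lower and 0 higher. All genes had 5.06% lower and 0.0824% higher there.

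Of the atypical receptors and related genes, 8, 8 and 7 were tested at Pd3, Pd7 and Pd21, of which 1, 1 and 0 were called higher and 1, 2 and 1 lower. Over all genes, 5.00%, 9.06% and 0.0824% were called higher and 4.74%, 7.35% and 5.06% lower. In lists this small 1 call is a large share. Cmklr1, the receptor of the chemoattractant chemerin, was 0.40, 0.40 and 0.64 FPKM in F1-Control and 1.57, 1.19 and 1.02 FPKM in F1-HHcy at Pd3 (0.61 ± 0.16, adjusted p = 0.0861). It passed the filter of that day only through F1-HHcy, so it could only be called higher. Rarres2, which encodes chemerin, was abundant at 70.2 to 358 FPKM over the 18 libraries and was not called on any day. The shift of the median over all genes by another scaling of the libraries was below 0.1 on the log2 scale on each day.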

How the data were processed

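RNA from 18 ovary libraries was sequenced after poly-A selection with a stranded kit. The authors deposited 1 table per library with a value for each of 30172 gene symbols. The deposited values were taken as FPKM, since multiplying them by gene length and depth gave whole fragments for 99.989% of 27294 genes within 0.02 fragments. The submitters' processing notes list FastQC 0.11.9, Trimmomatic 0.39, STAR 2.7.9a, featureCounts 2.0.1, Subread, DESeq2 1.36.0 and GRCm38 (mm10), without their settings, and the paper's methods name no test for these tables. FPKM values were analysed as log2(FPKM + 1), which understates the change of low genes. Each diet comparison used limma 3.58.1 (R 4.3.3, with a trended prior) on the 6 libraries of 1 day and genes at 1 FPKM or above in at least 3 of them. The change from Pd3 to Pd7 and the difference of diet effects came from 1 model of all 18 libraries. The procedure was tested on simulated data. Genes were named if called on any day, if among the 8 with the highest mean, or as the main gene of a role, and in neighbouring lists by the smallest p. The chemokine genes and all lists were chosen with earlier results of these data known. Alternatives were a pseudocount of 0.1, other filters, 1 model of all libraries, a replicate block, median-ratio scaling, limma-voom on the recovered fragments, adjusted p as threshold, and leaving out each library. No 2 libraries of a group agreed within sampling noise (chi-square per degree of freedom of at least 10.7). Python 3.11.15, pandas 2.3.3, numpy 2.4.6 and matplotlib 3.10.9 were used. Results for 1 gene of the family are not reported here.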

Additional observations from a re-analysis of the deposited data

Results flagged for a closer look

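The effect of the diet was called different between Pd3 and Pd7 for 3 of the 17 genes in the test of the difference itself. The criterion was an unadjusted p under 0.05 with the fold threshold (limma, 18 libraries). Over all 14607 genes tested, 4.75% were called higher and 5.28% lower, and none of the 3 genes passed an adjusted p of 0.05. The diet effect at Pd7 minus that at Pd3 was 2.26 ± 0.62 (SE) for Cxcl14, -1.16 ± 0.39 for Ccl12 and -0.80 ± 0.28 for Cxcl12 on the log2 scale, with Benjamini-Hochberg adjusted p of 0.119, 0.222 and 0.236 over 14607 genes. Cxcl14 was at 0.63 to 5.62 FPKM in F1-HHcy at Pd3 and at 19.1 to 21.7 FPKM at Pd7. Ccl12 was at 0.87, 1.93 and 2.11 FPKM in F1-HHcy at Pd3 and at 0.27, 0.61 and 0.40 FPKM at Pd7, while F1-Control had 1.11, 0.52 and 1.59 and then 1.99, 1.95 and 0.76 FPKM. For Cxcl14 the call was lost in limma-voom on fragments (2.24, unadjusted p = 0.0709). For Cxcl12 the difference was -0.56 without F1-HHcy Pd7 replicate 3 and no longer past the fold threshold.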

How the results depend on the processing

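With adjusted p as the threshold, the number of chemokine genes called went from 4 to 1 at Pd3, from 3 to 1 at Pd21 and from 3 to 0 for the difference of diet effects (limma, where limma-voom on fragments called 2, without Cxcl14), and over all genes from 1293 to 377, from 686 to 298, from 1465 to 60, and from 1994 to 1304 for age in F1-Control. Without a filter on low values, 1 was called at Pd21. Leaving out single libraries gave 3 to 6 at Pd3, 3 to 5 at Pd7, 1 to 5 at Pd21, 4 to 5 for age and 2 to 5 for the difference of diet effects. Without F1-HHcy Pd3 replicate 3, Cxcl10 at Pd3 turned from 0.76 to -0.66 (range over single libraries left out -0.66 to 1.55), and 2055 genes in all were called at Pd3. In 1 model of all libraries the calls of Cxcl10 at Pd7 (unadjusted p = 0.152) and of Cxcl10 and Cxcl1 at Pd21 (0.153 and 0.464) were lost, and Ccl5 and Cxcr4 were called at Pd21, Ccl12 at Pd7 and Ccl3 and Cxcl14 at Pd3, where the count became 6. The cause was not tested. With the replicate number as a block, 4, 4, 2 and 4 genes were called at Pd3, Pd7, Pd21 and for age. Cxcl1 at Pd21 lost its call (unadjusted p = 0.0561). Same-numbered libraries correlated at -0.20 to -0.137 at Pd3, -0.109 to 0.0872 at Pd7 and -0.338 to -0.117 at Pd21, which gave no clear sign of a pairing by number. With 3 libraries a group, centred on their own mean, such correlations cannot exclude a pairing. The difference of diet effects was not run with a block. With 3 libraries a group, and low levels of most receptors, small differences were not detectable.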
